A study of Arabidopsis thaliana with 9 samples.

Results

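Chloroplasts keep a small genome of their own. It holds genes for part of the photosynthetic machinery, for part of the ribosome that translates it and for the core of a bacterial-type RNA polymerase, while most chloroplast proteins are encoded in the nucleus. The genes are read by that plastid-encoded polymerase, which needs nuclear sigma factors and associated proteins, and by phage-type polymerases encoded in the nucleus. Many are transcribed together in long units that are cut and trimmed with the help of nuclear RNA-binding proteins.

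The chloroplast-encoded genes described here are the ids that begin with ATCG and had a value above 0 in at least 3 libraries. These were 111 of 133 such ids, among 32678 gene ids in all. RNA came from whole seedlings of Arabidopsis thaliana of the Col-0 ecotype, all 5 days old and all kept in constant white light of 14.59 μmol per square metre and second. There were 3 libraries of the mutant csu5-1, 3 of the mutant csu5-3 and 3 of Col, the wild type. Both mutant lines are named for COP1 SUPPRESSOR 5. COP1, a repressor of growth programmes driven by light, is an E3 ubiquitin ligase. The title speaks of 1 missense mutation without saying which allele has it, and no locus is named, so the level of the mutated gene was not checked. The labels do not say whether the 3 libraries of a genotype came from separate cultures, so p-values measure the spread between these libraries.

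The libraries were made from RNA selected on oligo(dT), which catches poly(A) tails. Chloroplast messages mostly lack such tails, and in plastids a poly(A) tail is known as a mark for degradation, so the values describe the fraction of chloroplast RNA that was caught and not the whole pool. In whole seedlings, fewer chloroplast-rich cells and less RNA per cell cannot be told apart. Levels are in FPKM, read counts scaled by exon length and by library size. The estimated depth was 37.24 to 43.11 M counted reads per library. Fold changes are differences of log2(FPKM + 0.5) with their standard errors, a scale that makes changes of low genes look smaller. A gene "rose" or "fell" where limma gave a p, adjusted by Benjamini and Hochberg over all genes tested, under 0.01 together with more than a 1.5-fold change.

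The files give ids without gene names. An id was given a gene name only where its values were whole reads for 1 annotated chloroplast gene length and clearly not for any other, or where a note in the annotation names it. This placed 40 ids as 1 gene or 1 kind of gene. It left 17 ids with a length that several genes share, so that ATCG00140, for example, is atpH or psaC. Another 7 ids fitted a length that fewer genes have than ids, and they carry no name: 3 ids, among them ATCG00020 and ATCG00350, fitted the 1062 bases of only 2 genes, psbA and psbD. At least 2 of the 62 matches to a length must therefore be wrong, and single names are to be read with that in mind. In all, 51 ids could be placed by function and 60 could not. No id could be named as the large subunit of Rubisco or as a subunit of the RNA polymerase, so these functions are not described.

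The coding sequences below are of the abundant ribosomal gene rpl32 and of 2 small photosystem II genes, all of which fell in csu5-1, from the RefSeq chloroplast genome of TAIR10.1. Capitals mark runs of at least 5 A, shown because the libraries were selected by pairing with A.
rpl32: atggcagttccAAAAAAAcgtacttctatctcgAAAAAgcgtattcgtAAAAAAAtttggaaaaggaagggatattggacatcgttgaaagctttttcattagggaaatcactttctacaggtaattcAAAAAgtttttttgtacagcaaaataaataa
psbT: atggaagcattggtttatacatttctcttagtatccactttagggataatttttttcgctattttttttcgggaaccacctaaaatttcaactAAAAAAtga
psbL: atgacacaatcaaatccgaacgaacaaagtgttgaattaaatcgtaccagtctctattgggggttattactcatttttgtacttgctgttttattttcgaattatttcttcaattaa
The 159 bases of rpl32 held 4 such runs and psbT held 1, while psbL held none.

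The summed level of chloroplast-encoded RNA was lower in csu5-1 than in Col. Summed over the 111 genes, the level was 389.03, 470.11 and 462.33 FPKM in csu5-1, 555.26, 674.43 and 807.0 FPKM in csu5-3, and 690.31, 668.31 and 807.51 FPKM in Col. Every csu5-1 library lay below every library of the other lines, whereas csu5-3 and Col overlapped. The mean of csu5-1 was 0.61 times that of Col (exact permutation test, 2-sided, p = 0.1, the smallest that 3 against 3 libraries can give) and that of csu5-3 was 0.94 times that of Col (exact permutation p = 0.7). The ratio of csu5-1 to csu5-3 was 0.65 (exact permutation p = 0.1). These are sums of FPKM as deposited. After the scaling used for limma, the ratio of csu5-1 to Col was 0.64. Without rpl32, the most abundant member, it was 0.65 in FPKM as deposited. The summed ratio of csu5-1 to Col was 0.60 for photosynthesis genes and 0.61 for ribosomal protein genes (exact permutation p = 0.1 for each). Without rpl32 that of the ribosomal protein genes was 1.16 (exact permutation p = 0.5).

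The summed RNA of the other organelle with a genome was also lower in csu5-1. The summed level of mitochondrion-encoded genes was 114.82, 112.18 and 128.52 FPKM in csu5-1, 132.8, 173.13 and 202.32 FPKM in csu5-3, and 212.86, 192.9 and 214.02 FPKM in Col, a ratio of 0.57 of csu5-1 to Col (exact permutation p = 0.1). Among 12 mitochondrion-encoded genes tested, 4 fell and 0 rose in csu5-1, where 7.86% of all genes fell and 8.31% rose. At an unadjusted limma p below 0.05, 0 were higher. Gene by gene the change was smaller, with a median log2 fold of −0.13 and a range from −1.31 to 0.73. A log2 fold below 0 was found in 8 of the 12. The sum also holds genes too low to be tested. The part of mitochondrial RNA in the chloroplast result was not tested.

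**Figure D1:**
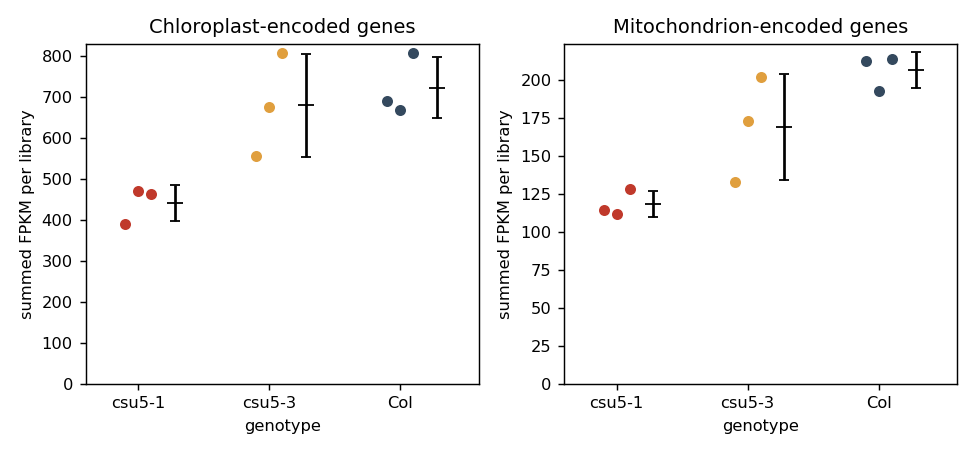
Summed FPKM of chloroplast-encoded genes (left) and of mitochondrion-encoded genes (right) in each library, by genotype; points are libraries and bars beside them the mean and SD of 3. All csu5-1 points of the chloroplast panel lie between 389.03 and 470.11 FPKM, below every csu5-3 and Col point.

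Of the 111 genes, 90 reached at least 1 FPKM in at least 3 libraries and were tested with all other genes. In csu5-1 against Col, 18 fell and 2 rose. The number that fell was 10 when csu5-1 replicate 1 was left out and 11 when Col replicate 3 was. Of all 19329 genes tested 7.86% fell, a smaller share than the 18 of 90, and 8.31% rose, a larger share than the 2 of 90. At an unadjusted limma p below 0.05, 35 members were lower and 4 higher, which is 38.9% and 4.44%, against 28.5% and 27.4% of all genes. A log2 fold below 0 was found in 64 members, 71.1% against 50.3% of all genes. The csu5-1 libraries lay wholly below Col for 24 members, 26.7% against 35.6% of all genes. They lay wholly above it for 2, 2.22% against 22.0%. These ranges are of FPKM before scaling, where the median log2 fold of all genes was −0.08. After scaling, the median log2 fold of the members was −0.35, while that of all genes tested was 0.00. The 21 members that were not tested had low means over all libraries, at most 0.708 FPKM. Single values were higher, up to 2.84 FPKM for ATCG01200 in csu5-3 replicate 3.

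Gene by gene, the folds of the functional groups had different medians, and the difference between groups was not tested. The genes placed in photosynthesis (photosystems, cytochrome b6f and ATP synthase) numbered 15, all tested. In csu5-1 against Col 5 of them fell, 0 rose and 14 had a log2 fold below 0, with a median of −0.79. Over all genes tested, 7.86% fell, 8.31% rose and 50.3% had a log2 fold below 0. None of the 15 was higher at an unadjusted limma p below 0.05, against 27.4% of all genes. Of 12 ribosomal protein genes tested, 1 fell and 0 rose by limma, and the median was 0.27. At an unadjusted limma p below 0.05, 1 was lower and 1 higher, against 28.5% and 27.4% of all genes. A count of 1 call among 12 does not set these genes apart from all genes.

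**Figure D2:**
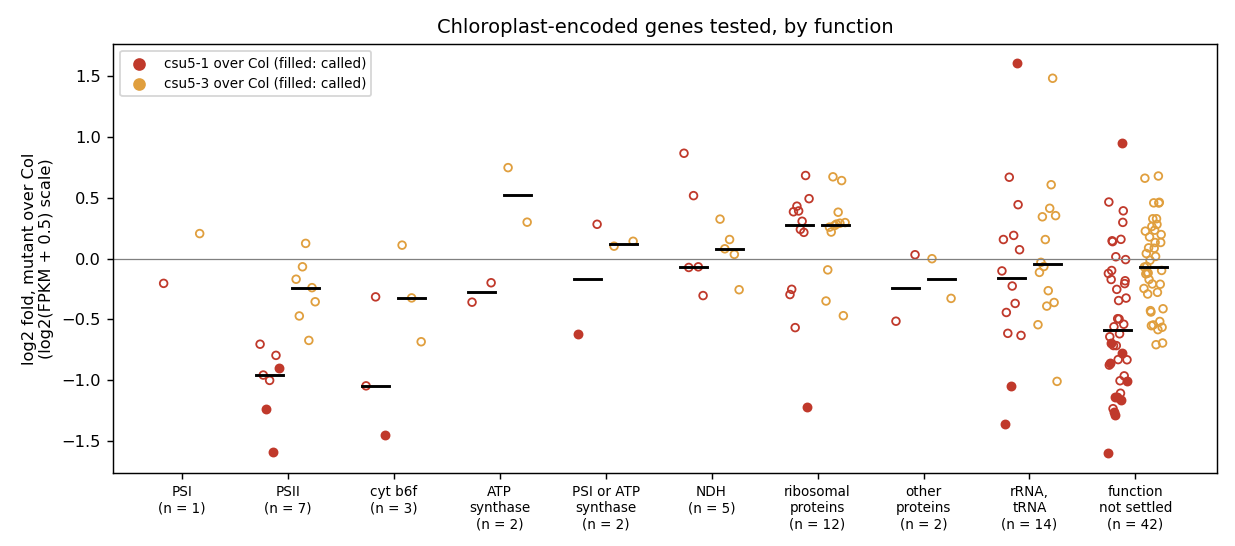
Log2 fold against Col of each tested chloroplast-encoded gene, by function, for csu5-1 (left of each pair) and csu5-3 (right); filled points are called and black lines are medians of groups of 2 or more. The 7 photosystem II genes lie below 0 in csu5-1, from −1.59 to −0.70.

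Photosystem II splits water, and its small subunits are among the chloroplast genes. All 7 genes placed by a psb name had a log2 fold below 0 in csu5-1 against Col, with a median of −0.96, and 3 fell. Among all genes tested, 50.3% had a log2 fold below 0 and 7.86% fell. PsbT (ATCG00690) is a small subunit near the interface of the photosystem II dimer. It stood at 4.43, 2.63 and 1.97 FPKM in csu5-1, 3.18, 8.43 and 8.52 FPKM in csu5-3, and 12.29, 8.88 and 9.46 FPKM in Col. The csu5-1 libraries did not overlap with Col, and the log2 fold was −1.59 ± 0.31 (limma adjusted p = 0.0011). Its values rest on few reads, an estimated 8 to 17 in csu5-1 and 38 to 50 in Col. PsbH (ATCG00710), a phosphoprotein of the complex, stood at 3.35, 6.53 and 4.99 FPKM in csu5-1, 6.16, 9.41 and 7.6 FPKM in csu5-3, and 12.98, 8.16 and 9.04 FPKM in Col. It fell by 0.90 on the log2 scale (limma adjusted p = 0.0041), with no overlap between csu5-1 and Col, a call lost under 5 of 19 alternatives. PsbL (ATCG00560), a small subunit encoded beside the cytochrome b559 genes, stood at 1.82, 3.44 and 5.38 FPKM in csu5-1, 5.75, 7.14 and 14.2 FPKM in csu5-3, and 9.64, 7.94 and 8.9 FPKM in Col. Its log2 fold was −1.23 ± 0.32 (limma adjusted p = 0.0066), a call that was lost under 7 of 19 alternatives. The other genes of the group did not pass: psbZ −0.96, psbN −0.79 and psbM −0.70 on the log2 scale, and psbE with a limma adjusted p of 0.051. The values of psbN rest on an estimated 2 to 20 reads. PsbM (ATCG00220), the most abundant of the group, stood at 13.92, 22.0 and 9.59 FPKM in csu5-1, 18.78, 19.43 and 29.94 FPKM in csu5-3, and 24.35, 26.78 and 23.95 FPKM in Col, with csu5-1 wholly below Col (adjusted p = 0.023 by limma).

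Cytochrome b6f carries electrons between the photosystems. PetB (ATCG00720), its cytochrome b6, stood at 2.91, 2.36 and 4.0 FPKM in csu5-1, 4.94, 5.05 and 7.85 FPKM in csu5-3, and 10.1, 6.91 and 12.74 FPKM in Col. All csu5-1 libraries were below all Col libraries, and petB fell by 1.45 on the log2 scale (limma adjusted p = 0.0002), the call holding under all 19 alternatives. An estimated 57 to 103 reads in csu5-1 and 188 to 325 reads in Col lay behind it. The small subunit genes petN and petL had log2 folds of −1.04 ± 0.42 (limma adjusted p = 0.054) and −0.31 ± 0.37 (limma adjusted p = 0.5) and did not pass.

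The unit psbB-psbT-psbH-petB-petD is a classic polycistronic message of the chloroplast. Of its members psbT, psbH and petB could be named, and all 3 fell in csu5-1 against Col, psbH with the limit given above. Among all genes tested, 7.86% fell. ATCG00730, whose length is that of petD and of rpl22, also fell (−0.78 ± 0.20, limma adjusted p = 0.0071), a call lost under 7 of 19 alternatives. ATCG00810, the other id of that length, stood at 0.39 ± 0.20 (adjusted p = 0.13).

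Photosystem I and ATP synthase had few named members, and none passed. PsaJ (ATCG00630), a small subunit of photosystem I and one of the most abundant members, stood at 13.98, 25.86 and 26.47 FPKM in csu5-1, 29.04, 32.59 and 28.58 FPKM in csu5-3, and 23.95, 46.95 and 15.43 FPKM in Col. The csu5-1 libraries lay wholly below csu5-3, while both overlapped with Col, whose libraries spanned the widest range. The ATP synthase genes atpI and atpE had log2 folds of −0.36 ± 0.33 and −0.20 ± 0.13 in csu5-1 against Col. ATCG00140, either atpH or psaC, fell by 0.62 on the log2 scale (adjusted p = 0.0017 by limma), a call lost under 3 of 19 alternatives. ATCG01060, the other id of that length, was at 0.28 ± 0.25.

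The NDH complex passes electrons from photosystem I back into the chain. Of 5 NDH genes 0 were called by limma in csu5-1 against Col, where 7.86% of all genes tested fell and 8.31% rose. At an unadjusted limma p below 0.05, 0 were lower and 1 higher, against 28.5% and 27.4% of all genes. The median log2 fold of the 5 was −0.07, which turned to 0.25 when libraries were scaled on the chloroplast-encoded genes. The largest was that of ndhJ (ATCG00420), at 0.86 ± 0.35 (adjusted p = 0.058). It stood at 1.34, 3.94 and 2.32 FPKM in csu5-1, 0.78, 1.44 and 2.95 FPKM in csu5-3, and 1.21, 0.85 and 1.38 FPKM in Col, and the csu5-1 and Col libraries overlapped at their edges. NdhC and ndhK, encoded beside it, were at 0.52 ± 0.35 and −0.07 ± 0.23.

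Among ribosomal protein genes 1 abundant member fell while 8 of the 12 tested had log2 folds above 0 in csu5-1. Over all genes tested, 7.86% fell and 50.3% had a log2 fold below 0. Rpl32 (ATCG01020), a protein of the large ribosomal subunit, was the most abundant member. It stood at 41.78, 48.82 and 43.37 FPKM in csu5-1, 68.13, 79.16 and 92.9 FPKM in csu5-3, and 94.9, 126.03 and 111.17 FPKM in Col. Its 3 groups kept apart from one another, and it fell in csu5-1 against Col with a log2 fold of −1.21 ± 0.11 (limma adjusted p = 2.5e-06). In csu5-3 against Col its log2 fold was −0.47 ± 0.11 (adjusted p = 0.035), which did not pass. The other 11 ribosomal protein genes tested had log2 folds from −0.57 to 0.68 in csu5-1, and none was called.

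Rps19 (ATCG00820), a small-subunit protein, stood at 2.19, 2.12 and 3.61 FPKM in csu5-1, 2.58, 2.56 and 2.75 FPKM in csu5-3, and 1.89, 0.6 and 2.55 FPKM in Col. Its log2 folds were 0.68 ± 0.31 in csu5-1 and 0.64 ± 0.31 in csu5-3, and neither passed. Rpl16 (ATCG00790), a large-subunit protein, stood at 10.94, 10.01 and 16.9 FPKM in csu5-1, 11.71, 15.3 and 14.41 FPKM in csu5-3, and 8.36, 11.21 and 12.01 FPKM in Col. Its log2 folds were 0.31 ± 0.18 in csu5-1 and 0.38 ± 0.18 in csu5-3, and neither passed. For both genes the csu5-1 and Col libraries overlapped. Both mutants are compared with the same Col libraries, so their folds share that error.

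**Figure D3:**
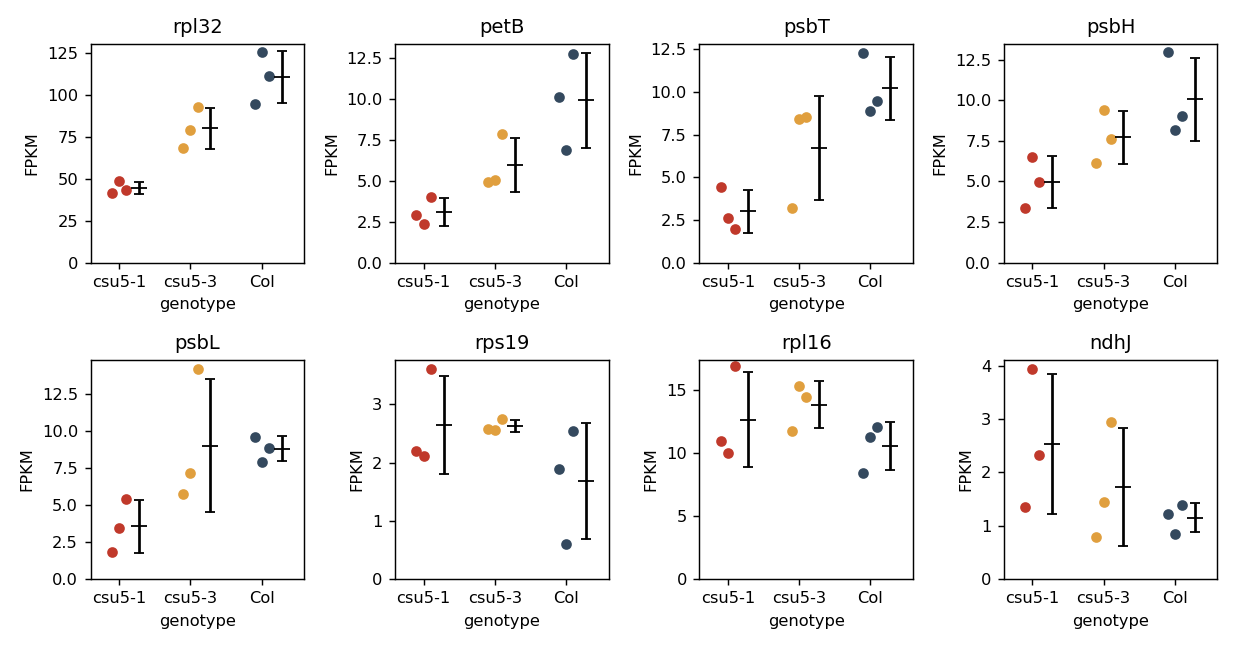
FPKM of 8 named chloroplast-encoded genes in each library, by genotype, with the mean and SD of 3 libraries beside the points; each panel has its own axis from 0. The csu5-1 points of rpl32 (41.78 to 48.82 FPKM) lie below all csu5-3 and Col points, while those of rps19 and rpl16 overlap with Col.

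The other called genes could not be given 1 name. Among the 42 tested ids whose function was not settled, 10 fell and 1 rose in csu5-1 against Col. Of all genes tested, 7.86% fell and 8.31% rose. ATCG00020 stood at 4.68, 7.13 and 9.26 FPKM in csu5-1, 12.73, 20.37 and 26.76 FPKM in csu5-3, and 22.59, 18.82 and 27.5 FPKM in Col. It had the lowest fold of all members tested in this comparison (−1.60 ± 0.25, limma adjusted p = 0.0002), and csu5-1 did not overlap with either line. ATCG00490 stood at 9.12, 10.02 and 13.14 FPKM in csu5-1, 14.51, 16.73 and 21.07 FPKM in csu5-3, and 24.13, 20.65 and 32.63 FPKM in Col. It fell in csu5-1 against Col (−1.14 ± 0.17, limma adjusted p = 0.00015), and csu5-1 lay below both other lines, which overlapped. The others that fell were ATCG00120, ATCG00130, ATCG00330, ATCG00340, ATCG00350, ATCG00680, ATCG00730 and ATCG01180, with log2 folds from −1.28 to −0.69. Calls were lost under 7 alternatives for ATCG00730, 5 for ATCG00330 and ATCG01180, 3 for ATCG00130 and 1 for ATCG00120. The 1 that rose, ATCG00740, stood at 4.0, 3.07 and 3.66 FPKM in csu5-1, 3.37, 2.33 and 3.51 FPKM in csu5-3, and 1.62, 1.47 and 2.05 FPKM in Col. Both mutants lay above Col in every library, with log2 folds of 0.95 ± 0.17 in csu5-1 (limma adjusted p = 0.00059) and 0.68 ± 0.17 in csu5-3 (adjusted p = 0.042, not called).

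Transfer RNA genes had few calls in csu5-1 against Col. These short RNAs bring amino acids to the ribosome, and reads on them are few. Of 14 tested rRNA and tRNA ids, 2 fell and 1 rose, where 7.86% of all genes tested fell and 8.31% rose. Counts this small do not set these ids apart from all genes. The 2 that fell, ATCG00090 and ATCG00290, both have the length of a trnS gene, with log2 folds of −1.36 ± 0.35 and −1.05 ± 0.19. The call of ATCG00090 was lost under 5 of 19 alternatives and that of ATCG00290 under 0. The 1 that rose, ATCG00410, has a length that several tRNA genes share. It passed the filter of 1 FPKM only through the mutant libraries, so a tested difference from Col was built in. It stood at 2.18, 2.94 and 1.38 FPKM in csu5-1, 2.22, 2.02 and 1.75 FPKM in csu5-3, and 0.0, 0.65 and 0.7 FPKM in Col, and both mutants lay wholly above Col. If its length is right, these are 4 to 8 reads in csu5-1 and 0 to 2 reads in Col.

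In csu5-3 against Col, 0 of the 90 genes were called by limma, against 0.248% of all genes tested. At an unadjusted p below 0.05, 10 were lower and 8 higher, which is 11.1% and 8.89%, against 12.2% and 9.78% of all genes. The median log2 fold was 0.01. It was −0.24 over photosystem II genes and 0.28 over ribosomal protein genes. In csu5-1 against csu5-3, 13 fell and 0 rose by limma (1 was higher at an unadjusted p below 0.05). That is 14.4% of the members lower, against 6.59% of all genes tested, and 0.0% higher, against 8.12%. The 1 higher at an unadjusted p is 1.11% of the members, against 25.5% of all genes. The median was −0.36. Among placed genes that fell in this comparison were rpl32 (−0.75 ± 0.11, limma adjusted p = 0.00016) and the tRNA gene trnL (ATCG00400), whose call held under all 19 alternatives. PsbL also fell, a call lost under 11 of 19 alternatives. TrnL stood at 6.57, 9.79 and 9.77 FPKM in csu5-1, 13.64, 18.22 and 24.65 FPKM in csu5-3, and 12.39, 9.53 and 14.04 FPKM in Col. The mutants did not overlap with each other, while both overlapped with Col. Against Col its log2 folds were −0.37 ± 0.20 in csu5-1 and 0.61 ± 0.20 in csu5-3, and neither was called. The others that fell in csu5-1 against csu5-3 were ATCG00020, ATCG00090, ATCG00120, ATCG00130, ATCG00140, ATCG00270, ATCG00340, ATCG00350, ATCG00500 and ATCG00680. ATCG00500 reached 1 FPKM only in the csu5-3 libraries and in Col replicate 3, so its fall against csu5-3 was partly built in. Calls were lost under 9 alternatives for ATCG00340 and ATCG00500 and under 8 for ATCG00350. For ATCG00090, ATCG00130 and ATCG00270 they were lost under 6, and for the rest of this list under at most 2. Leaving out csu5-1 replicate 1 gave 7 that fell. Leaving out csu5-3 replicate 2 gave 5, and csu5-3 replicate 3 gave 6.

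Among nuclear genes for the same photosystems, more rose than fell in csu5-1. Of 11 nuclear photosystem II genes 3 rose and 0 fell by limma (at an unadjusted p below 0.05, 9 were higher and 1 lower), with a median of 0.50 beside −0.96 for the chloroplast-encoded genes of that complex. Of 12 nuclear photosystem I genes 4 rose and 0 fell by limma (at an unadjusted p below 0.05, 12 were higher and 0 lower), with a median of 0.49. Of all genes tested, 27.4% were higher and 28.5% lower at that p. PSBW (AT2G30570), a small photosystem II subunit, averaged 1502 ± 19.0 FPKM in csu5-1 and 811 ± 12.1 FPKM in Col (SD, n = 3 each) and rose by 0.97 on the log2 scale (limma adjusted p = 1.6e-08). PSAH2, a photosystem I subunit, rose by 0.86 and PSBY, of photosystem II, by 0.79. RBCS1B, a small subunit gene of Rubisco, fell to 365 ± 6.34 FPKM in csu5-1, against 839 ± 14.2 FPKM in Col. It was the only 1 called of the 4 nuclear Rubisco genes. These had a median of −0.01, with 2 lower and 2 higher at an unadjusted limma p below 0.05. The 4 nuclear NDH genes had a median of −0.50, and 1 of them, NDHN, fell. In all, 7 of 36 partner genes rose and 2 fell in csu5-1 against Col, where 8.31% of all genes tested rose and 7.86% fell. In csu5-3 against Col 0 partner genes were called. At an unadjusted limma p below 0.05, 10 were lower and 0 higher, against 12.2% and 9.78% of all genes. The smallest p-values there were those of NDHM (−0.24) and PSAH2 (−0.24).

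**Figure D4:**
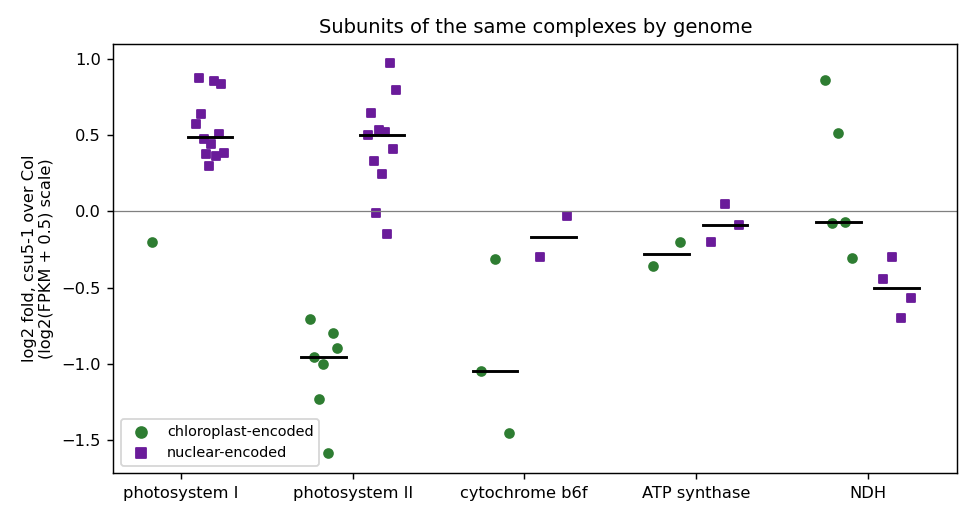
Log2 fold of csu5-1 over Col for chloroplast-encoded genes (circles, left of each pair) and nuclear-encoded genes (squares, right), placed by name in 5 complexes. Black lines are medians of groups of 2 or more. In photosystem II the chloroplast-encoded genes have a median of −0.96 and the nuclear-encoded ones of 0.50.

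Nuclear genes of the plastid transcription machinery were mostly lower in csu5-1. Of 23 tested, 11 fell and 1 rose in csu5-1 against Col, with a median of −0.55. Of all genes tested, 7.86% fell and 8.31% rose. PAP6, PAP8 and PAP3, proteins that surround the plastid-encoded polymerase, fell with log2 folds of −1.81 ± 0.09, −1.21 ± 0.06 and −1.32 ± 0.08. RPOTp (AT2G24120), the phage-type polymerase of plastids, averaged 6.71 ± 0.327 FPKM in csu5-1 and 21.9 ± 2.10 FPKM in Col (log2 fold −1.56 ± 0.08, limma adjusted p = 2.5e-08). The 1 that rose was SIG5, a sigma factor known from responses to blue light and stress, named after its values were seen, at 1.26 ± 0.08. In csu5-3 against Col 0 of the 23 were called by limma. At an unadjusted limma p below 0.05, 7 were lower and 0 higher, against 12.2% and 9.78% of all genes. The smallest p-values were those of PAP12 (−0.29) and PAP9 (−0.30).

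Genes of plastid RNA processing and stability gave 4 falls and 1 rise among 19 in csu5-1 against Col, with a median of −0.23. Of all genes tested, 7.86% fell and 8.31% rose. CP29A (AT3G53460) and CP33A, chloroplast RNA-binding proteins that bind and stabilise messages, averaged 197 ± 5.39 and 53.3 ± 0.544 FPKM in csu5-1 and 699 ± 20.5 and 143 ± 7.70 FPKM in Col. Their log2 folds were −1.75 ± 0.05 and −1.34 ± 0.06. RNJ, the plastid ribonuclease J, fell by 1.20 and MRL1, which stabilizes the message for the large subunit of Rubisco, fell by 0.66. The 1 that rose was RNE (0.61 ± 0.07), a ribonuclease E, named after its values were seen. In csu5-3 against Col 0 of these genes were called by limma. At an unadjusted limma p below 0.05, 4 were lower and 3 higher, against 12.2% and 9.78% of all genes. The smallest p-values were those of CP29A (−0.18) and CSP41B (0.20).

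Markers of seedling tissue also differed. The 3 leaf markers (RBCS1A, RCA and CA1) summed to 8708 ± 109 FPKM in csu5-1, 10449 ± 346 FPKM in csu5-3 and 10550 ± 452 FPKM in Col, and none of them was called in csu5-1 against Col. RBCS1A carried the lower sum, at 6016 ± 117 FPKM in csu5-1 and 8401 ± 487 FPKM in Col. RCA went the other way, at 2239 ± 24.9 FPKM in csu5-1 and 1733 ± 29.1 FPKM in Col, and CA1 stood at 453 ± 9.92 FPKM in csu5-1 and 417 ± 44.8 FPKM in Col. The 4 root markers summed to 2288 ± 21.4 FPKM in csu5-1, 2254 ± 46.3 FPKM in csu5-3 and 1997 ± 123 FPKM in Col. PYK10 made up nearly all of that sum, at 2260 ± 21.3 FPKM in csu5-1 and 1956 ± 120 FPKM in Col, and was not called. In csu5-1 against Col, PRP3 and EXPA18 fell, by 1.45 and 1.18 on the log2 scale, and SHR rose. No marker was at 0, and their part in the chloroplast result was not tested.

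The A content of the coding sequence differed between the groups. Across the 31 tested genes with a coding sequence at hand, A made up 31.4% to 40.4% of ribosomal protein genes and 21.2% to 30.4% of photosystem II genes. Percent A and the log2 fold of csu5-1 over Col had a Pearson r of 0.41 and a Spearman rho of 0.43 across these genes, and r was 0.34 without the 2 genes farthest from the median A content. For csu5-3 over Col, r was 0.31 and rho 0.37. The length of the coding sequence followed the csu5-1 fold about as closely, with r of 0.34 and rho of 0.39, and the longest run of A less so, with r of 0.25, or 0.06 without the 2 farthest genes. Genes share units and libraries, so this is a description with no test. Rpl32, at 39.6% A and −1.21, went against it.

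**Figure D5:**
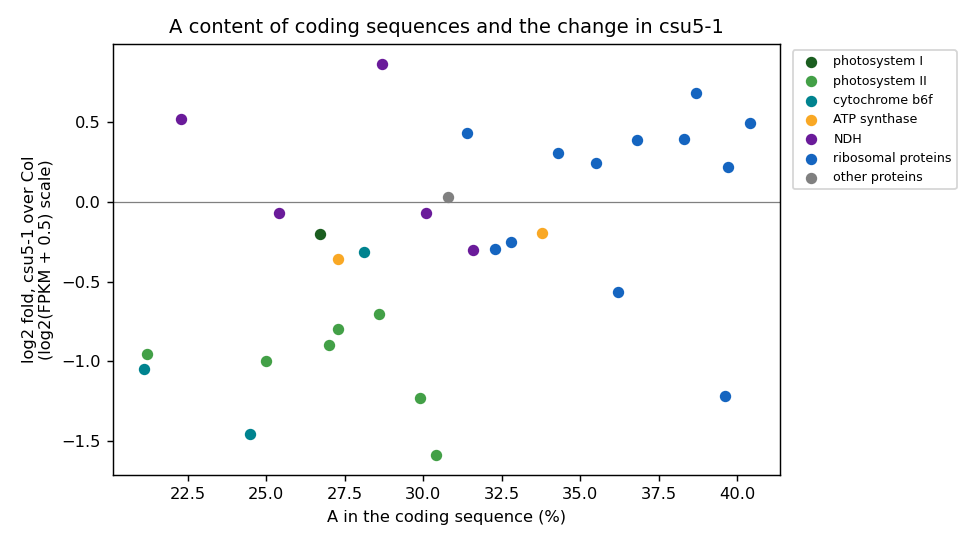
Percent of A in the coding sequence (x axis) and log2 fold of csu5-1 over Col (y axis) of 31 tested chloroplast-encoded genes, coloured by function. Ribosomal protein genes lie to the right at 31.4% to 40.4% A, most of them above 0, and rpl32 lies to the right at −1.21.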

How the data were processed

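The authors' deposited files give 1 FPKM value per gene and library, without header or stated unit. The submitters' processing notes list Trimmomatic, HISAT2 2.05 and HTSeq, with TAIR10 as the build. No source says how FPKM were made from counts or whether counting used strand, so overlapping genes (among them atpE and rps3) and genes with identical copies (rpl2, rps7 and rRNA) are uncertain. Depth came from the steps between low values, of which 73.2% to 82.4% per library fell within 0.1 read of a whole number.

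Limma 3.58.1 in R 4.3.3 was run on log2(FPKM + 0.5), its prior spread following the mean level, after scaling by a mean of log ratios trimmed by 0.3 at each end, in 1 fit of 9 libraries over the 19329 genes that reached 1 FPKM in 3 or more libraries. It was tested on simulated data. The planned count test was not used, because the values are FPKM.

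Gene names came from exon lengths of TAIR10.1, since the reference pairs only 6 of the ids with a product. An id was matched to the length at which its values came closest to whole reads in all libraries, if the log likelihood led that of every other length by 6. Gene order along the chromosome was not used. The lead of 6 is the smallest step tried at which at most 1% of matches were wrong for 557 nuclear genes without UTRs, whose lengths are known (1 of 149 matched); among the chloroplast ids at least 2 of 62 must be wrong, since more ids than genes fitted 2 lengths. This rule replaced earlier ones, which used neighbouring genes and limits set after seeing the names they gave. No coordinates are given.

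A few ribosomal protein genes are not reported by name here. Genes named are those called, the 3 most abundant of each group, members of transcription units and, of each nuclear list, the 4 called genes of lowest p (with none called, the 2 of lowest p). NDHN, SIG5 and RNE were named beyond this rule. Members and lists were chosen with earlier results of these data known. Alternatives were other pseudocounts, filters and scalings, no trend, 2 genotypes only, a replicate block and leaving out each library. Python 3.11.15, pandas 2.3.3, numpy 2.4.6 and matplotlib 3.10.9 were used.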

Additional observations from a re-analysis of the deposited data

How the results depend on the processing

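Ids without a name, the few reads on short genes and the oligo(dT) selection limit what can be said. With a filter of 5 FPKM, 0 chloroplast-encoded genes rose in csu5-1 against Col, because the 2 that rose were too low to be tested, and the median log2 fold was −0.70 (−0.63 in csu5-1 against csu5-3). Scaled on the chloroplast-encoded genes themselves, which puts the median of all genes at 0.36 in csu5-1 against Col, the median of the members was −0.03 in csu5-1 against Col and −0.04 in csu5-1 against csu5-3, and 15, 7 and 1 genes rose in csu5-1 against Col, csu5-1 against csu5-3 and csu5-3 against Col. Those calls use a spread pooled over genes (the standard error of ATCG00240 is then 0.25, against 0.68), so the genes that rose are not reported as results. The same scaling is still among the 19 alternatives under which calls were counted as kept or lost. It alone cost ATCG00120 its call. Under that scaling photosystem II genes had a median of −0.60 and ribosomal protein genes of 0.64 in csu5-1 against Col. Without a trend, 7 genes fell in csu5-1 against csu5-3, and the cause was not tested. A length match with a lead of 8, chosen after seeing the data, moved the NDH median in csu5-1 against Col to 0.52.

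Leaving out 1 library at a time, 10 to 24 genes fell and 2 to 3 rose in csu5-1 against Col, with 10 without csu5-1 replicate 1 and 11 without Col replicate 3. In csu5-1 against csu5-3, 5 to 16 fell and 0 to 1 rose, with 7 without csu5-1 replicate 1. The summed ratio of csu5-1 to Col stayed between 0.59 and 0.65.

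Replicate numbers were not taken as pairs: deviations of same-numbered libraries correlated at 0.02 to 0.15 over all genes, not all above 0.1. All 9 same-numbered pairs were above 0, against 2 of 18 different-numbered pairs. These counts are not independent, because deviations within a genotype sum to 0, so positive same-numbered pairs push the others below 0. They are a hint of pairing from the data and not from the design. Still, csu5-1 replicate 3 correlated more with csu5-3 replicate 1 (0.03) than with csu5-3 replicate 3 (0.02). With a replicate block, 24 genes fell in csu5-1 against Col, 21 in csu5-1 against csu5-3 and 1 in csu5-3 against Col. Over single named genes and alternatives, 2422 values kept their side of the threshold, 101 lost the call and 59 gained one, and none changed sign while called.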
